A study of Mus musculus with 14 samples.

Results

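The 10 genes described here are identity genes of the type 1 conventional dendritic cell (cDC1): Xcr1, Clec9a, Tlr3, Cadm1, Itgae, Cd24a, Batf3, Wdfy4, Naaa and Ppt1. They were taken by name from a table of 21205 genes, and no measured value entered that choice. All 10 had counts and were kept in each comparison across genes.

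The cDC1 is the dendritic cell that takes up material of dying cells and presents it on MHC class I to CD8+ T cells, which makes it a central cell of antitumour immunity. XCR1 is the receptor for the chemokine XCL1, through which CD8+ T and NK cells contact the cDC1. CLEC9A binds actin exposed by dead cells, and TLR3 senses double-stranded RNA in endosomes. CADM1, the integrin chain CD103 (Itgae) and CD24 are surface proteins by which cDC1 are recognised. BATF3 is a transcription factor that cDC1 need for their development, and WDFY4 acts in cross-presentation of cell-associated antigen. NAAA and PPT1 are lysosomal enzymes. Dendritic cells that mature and leave for the lymph node turn on the chemokine receptor CCR7.

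Positions are given on build GRCm38. Xcr1 lies on chromosome 9 from 123852315 to 123862029 on the minus strand, Clec9a on chromosome 6 from 129408862 to 129424763 on the plus strand, and Tlr3 on chromosome 8 from 45395665 to 45411080 on the minus strand. Cadm1 lies on chromosome 9 from 47530173 to 47857637, Itgae on chromosome 11 from 73090583 to 73147446, and Cd24a on chromosome 10 from 43578284 to 43584265, all on the plus strand. Batf3 lies on chromosome 1 from 191097847 to 191108945 on the plus strand, and Wdfy4 on chromosome 14 from 32959547 to 33185508 on the minus strand. Naaa lies on chromosome 5 from 92257659 to 92278170 on the minus strand, and Ppt1 on chromosome 4 from 122836242 to 122859175 on the plus strand.

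The sequences upstream of Xcr1 and Clec9a are shown because these 2 genes had the lowest log2 fold changes between genotypes. RefSeq promoters (GRCm38.p6) matched 7 of the 10 genes. Each stretch ends at the base before the transcript start and is written 5′ to 3′ on the gene's strand. Capitals mark TATAAA, read here on the opposite strand as TTTATA. The Xcr1 stretch is chr9:123862030-123862279 (minus strand), and the Clec9a stretch is chr6:129408612-129408861 (plus strand) and overlaps an exon of Clec1b.
Xcr1: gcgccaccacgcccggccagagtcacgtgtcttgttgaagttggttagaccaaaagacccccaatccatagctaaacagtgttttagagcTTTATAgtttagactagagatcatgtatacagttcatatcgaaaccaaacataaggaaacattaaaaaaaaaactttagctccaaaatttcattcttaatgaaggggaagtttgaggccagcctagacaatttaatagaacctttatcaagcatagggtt
Clec9a: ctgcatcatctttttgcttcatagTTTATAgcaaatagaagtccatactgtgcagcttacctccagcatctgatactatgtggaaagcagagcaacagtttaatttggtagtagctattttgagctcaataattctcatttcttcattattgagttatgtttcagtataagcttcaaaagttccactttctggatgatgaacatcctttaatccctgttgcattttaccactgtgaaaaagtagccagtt
On either strand, TATAAA was in 2 of the 7 matched stretches and in 12.4% of 32851 RefSeq stretches of 250 bases. The AP-1 motif TGANTCA was in 0 of the 7 and in 6.75% of all, which says only that these letters are not in these windows.

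Female mice bore subcutaneous tumours of YUMM1.7, a melanoma line, from which single cells labelled as cDC1 were sorted; transcripts were counted by unique molecular identifiers (UMIs) at the 5′ end. A sample was a plate sorted from the tumour of a single mouse, so that the 14 plates are the replicates. Irf1_dXCR1 (5 plates, 223 cells) was set against Irf1_FF (4 plates, 165 cells), and Ikbkb_dXCR1 (4 plates, 133 cells) against Ikbkb_FF (1 plate, 34 cells). The product of Irf1 is a transcription factor induced by interferon, and that of Ikbkb is IKKβ, a kinase that activates NF-κB. Both dXCR1 lines carry a deleter at Xcr1, and the labels of FF plates name none; which exons are deleted, and whether the deleter alters the Xcr1 transcript, is not given in the sources used here. Irf1_dXCR1 and Irf1_FF mice were 6 weeks of age. Ikbkb_dXCR1 plates 1 and 2 and the Ikbkb_FF plate came from mice of 8 weeks, and Ikbkb_dXCR1 plates 3 and 4 from mice of 6 weeks. Each line was 1 labelled experiment, so line and experiment cannot be told apart.

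Plates held 18 to 59 cells and 2810321 to 10120557 UMIs, and the median cell had 143476 UMIs from 1578 genes. The 94 well barcodes were all used on more than 1 plate, and 0 of the 555 cells had counts identical to those of another. Irf1 averaged 228 ± 108 CPM in Irf1_dXCR1 plates (SD, n = 5) and 342 ± 100.1 CPM in Irf1_FF plates (n = 4; edgeR adjusted p = 0.685), and Ikbkb 239 ± 87.8 CPM in Ikbkb_dXCR1 plates (n = 4) and 291 CPM in the Ikbkb_FF plate (edgeR adjusted p = 1). Levels are given as CPM, UMIs per 1000000 of a plate's total scaled by TMM. Counts at the 5′ end may lie outside the deleted exons, so these values do not check the labels. Some sorted cells carried markers of another cell type: in 122 cells (22.0%) at least 3 markers of such a type had 10 or more UMIs. The markers were those of macrophages (62 cells), fibroblasts or endothelium (52) or T or NK cells (12), and some cells carried more than 1 list. These marked cells made up 7.69 to 48.8% of a plate, the highest share being that of Irf1_FF plate 1. Some of them also held identity genes: at least 5 were found in 9 macrophage-marked, 3 fibroblast-marked and 3 T or NK-marked cells.

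Across all 555 cells, the lysosomal enzymes were the identity genes found most often and the dead-cell receptor and CD103 the least. Ppt1 had a UMI in 59.8% of cells (exact 95% interval 55.6 to 63.9) and Naaa in 55.7% (51.4 to 59.9). Wdfy4 was found in 47.4%, Batf3 in 39.5%, Xcr1 in 31.7% and Cd24a in 30.8% of cells. The other 4 lay between 25.0% (Itgae) and 27.9% (Cadm1). Intervals cover counting error only, and a 5′ UMI counts a transcript once whatever its length, so that levels of different genes may be set side by side. In plate sums Ppt1 ranged from 822 to 2258 CPM with a median of 1171, and Clec9a, the lowest, from 41.3 to 206 with a median of 75.2. Xcr1 varied most between plates, by 13.3-fold, from 54.6 to 727 CPM with a median of 233. Cadm1 varied by 10.1-fold, and the other 8 genes by 2.19-fold (Batf3) to 4.98-fold (Clec9a). The UMI of 5 bases sets a ceiling on the count of a gene in a cell, which Ppt1 and Naaa came nearest to, with up to 913 and 847 UMIs in a cell, so that these 2 genes may be understated in their highest cells. Cd24a has near-identical copies in the mouse genome, and its counts are uncertain where reads could be split between them.

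In plate sums, fewer cells with a gene and less RNA per cell cannot be told apart, so shares of cells are given beside sums. Pairs of identity genes are described here by how often both were found in a cell, and pairs of other genes were not counted. Among the 279 unmarked cells without a Ccr7 UMI, in all 45 pairs 1 gene was found more often in cells with the other than in cells without it, with a phi coefficient of 0.141 to 0.651 and a median of 0.326. The strongest pair was Naaa and Ppt1: Ppt1 was found in 92.9% of cells with Naaa and in 27.3% of cells without it. The weakest was Cadm1 and Batf3, with Batf3 in 56.0% of cells with Cadm1 and in 41.7% of cells without it. The number of identity genes found in a Ccr7- cell also went with the number of genes found in it (Spearman rho = 0.79 over 279 cells that share their plates and vary in depth), and the part of depth in these pairs was not tested. With counts divided by the cell's total, the median Spearman rho within a plate was 0.36 for Naaa and Ppt1, above 0 on all 14 plates. It was the lowest for Cadm1 and Tlr3, at 0.005 and above 0 on 8 of 14 plates.

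The first comparison asks which identity genes differ between cells with and without Ccr7. Ccr7+ cells had 10 or more Ccr7 UMIs, Ccr7- cells had none, and marked cells were left out of both. There were 123 Ccr7+ and 279 Ccr7- cells, with a median of 130874 and 141976 UMIs. A further 31 unmarked cells with 1 to 9 Ccr7 UMIs were left out. UMIs were summed per class over 13 plates with at least 3 cells of each class (Ikbkb_dXCR1 plate 2, with 2 Ccr7+ cells, is not in the fit) and tested with the plate as a block. In Ccr7+ cells 9 of the 10 identity genes were lower past the threshold (edgeR, adjusted p below 0.05), and Batf3 was not. Of the 4945 genes tested, 20.3% passed in either direction and 16% were lower in Ccr7+ cells. The median log2 ratio of mean CPM was -3.02 over the 10 genes and -0.38 over all genes tested. The median over the 10 includes genes that had to be lower, named next, and is a description only. All 10 reached 10 UMIs in at least 7 of 13 Ccr7- sums but only 4 in as many Ccr7+ sums, so that Xcr1, Clec9a, Tlr3, Itgae, Cd24a and Naaa passed the filter on low counts through their Ccr7- level and had to be lower in Ccr7+ cells. For these 6 the levels are given as a description, without a p, and their calls are no support. Of the other 4, Cadm1, Wdfy4 and Ppt1 were called lower (4.75-, 7.55- and 8.73-fold in mean CPM) and Batf3 was not (1.15-fold).

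The receptors had the lower levels in Ccr7+ cells. Xcr1 had 0, 0.684 and 214 CPM (lowest, median, highest of 13 plates) in Ccr7+ cells, against 107, 387 and 1116 CPM in Ccr7- cells. It was lower in Ccr7+ cells on all 13 plates and at 0 on 6 of them, although the groups overlap because 3 plates had 177 to 214 CPM. Its mean was 52.6 ± 86.6 CPM in Ccr7+ and 482 ± 339 CPM in Ccr7- cells (SD, n = 13), which is 9.16-fold lower. Clec9a had 0, 0 and 179.9 CPM in Ccr7+ cells, against 47.7, 168 and 339 CPM in Ccr7- cells. It was lower in Ccr7+ cells on 12 of 13 plates, with Irf1_dXCR1 plate 4 the exception, and 6.71-fold lower on average. Tlr3 was found at 0 in Ccr7+ cells of 12 plates and at 8.93 CPM on Irf1_dXCR1 plate 5, against 64.8, 301 and 501 CPM in Ccr7- cells. All Ccr7+ cells together held 18 Tlr3 UMIs, in 2 cells.

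The surface proteins used to recognise cDC1 were lower too. Itgae had 0, 0 and 176 CPM in Ccr7+ cells, against 186, 357 and 454 CPM in Ccr7- cells. The mean was 8.99-fold lower in Ccr7+ cells. Cd24a had 0, 0 and 321 CPM in Ccr7+ cells, against 101.5, 372 and 619 CPM in Ccr7- cells, and was lower on all 13 plates (4.84-fold). Cadm1, an adhesion molecule, reached 10 UMIs in enough sums of both classes. It had 0, 8.85 and 197 CPM in Ccr7+ cells, against 86.9, 232 and 589.9 CPM in Ccr7- cells, was lower on 11 of 13 plates and 4.75-fold lower on average (edgeR adjusted p = 0.0346). Leaving out 1 plate took its adjusted p above 0.05 for 8 of the 13 plates (Irf1_dXCR1 1, 2 and 3, Irf1_FF 1, 2 and 4, Ikbkb_dXCR1 1 and 3), to 0.0702 at most.

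The lysosomal enzymes and Wdfy4 were lower as well. Naaa had 0, 1.13 and 652 CPM in Ccr7+ cells, against 1271, 1959 and 2691 CPM in Ccr7- cells. Ppt1 had 0, 179 and 893 CPM in Ccr7+ cells, against 1478, 2167 and 2717 CPM in Ccr7- cells. Wdfy4 had 0, 88.6 and 427 CPM in Ccr7+ cells, against 697, 799 and 975 CPM in Ccr7- cells. Every Ccr7+ value of Ppt1 and Wdfy4 lay below every Ccr7- value, and so did those of Naaa, which passed the filter through its Ccr7- level. How many of all genes tested separate in this way was not counted. The means were 18.2-fold (Naaa), 8.73-fold (Ppt1) and 7.55-fold (Wdfy4) lower in Ccr7+ cells, with edgeR adjusted p of 0.00254 for Ppt1 and 0.00785 for Wdfy4.

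Batf3, the lineage transcription factor, was the gene that did not pass. It had 0, 454 and 1014 CPM in Ccr7+ cells, against 326, 567 and 798 CPM in Ccr7- cells. It was lower in Ccr7+ cells on 7 plates and higher on 6, and the only plate at 0 was Irf1_dXCR1 plate 2, with 6 Ccr7+ cells. The mean was 466 ± 260 CPM in Ccr7+ and 536 ± 167 CPM in Ccr7- cells (SD, n = 13), and the fitted log2 difference was -0.42 ± 0.56 (SE, 95% interval -1.60 to 0.76; edgeR adjusted p = 0.616). That interval does not show the levels to be the same.

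**Figure D1:**
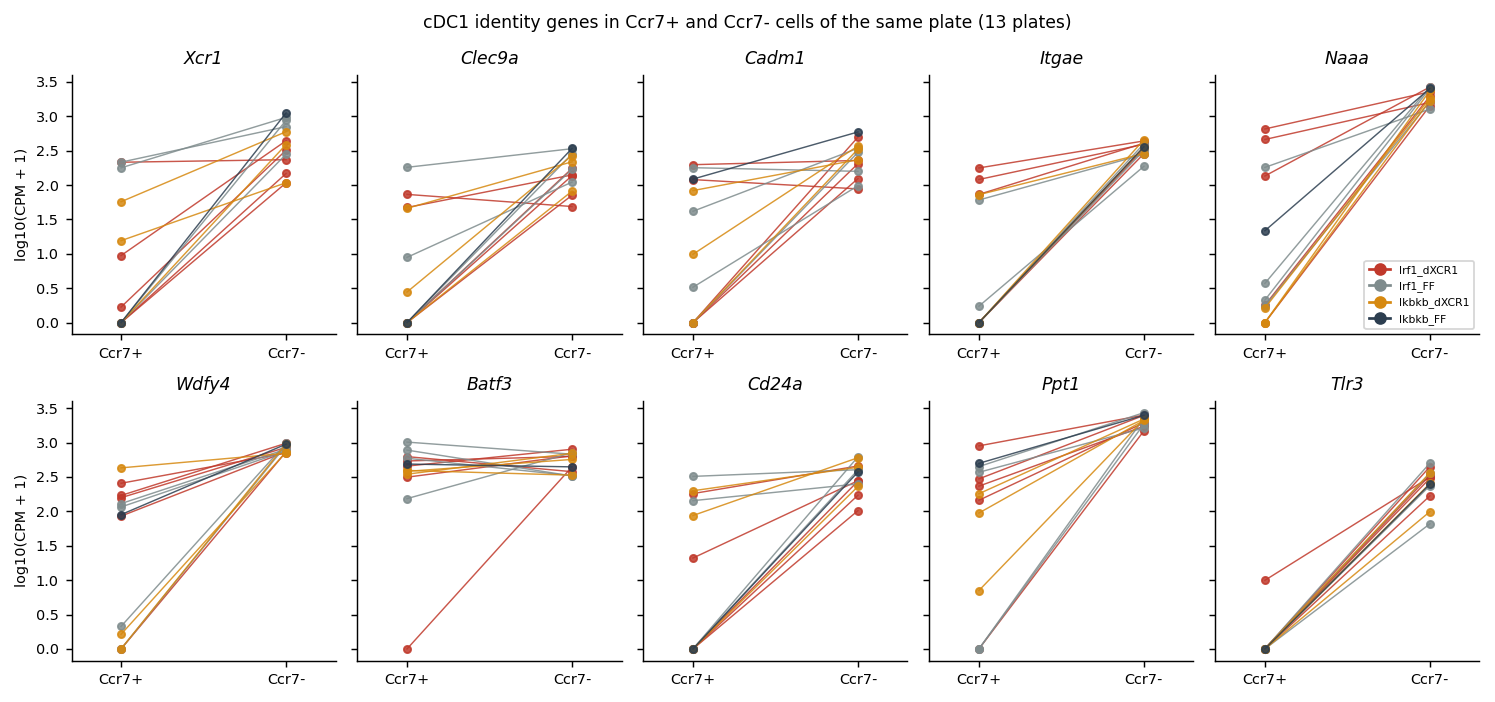
Level of each identity gene in Ccr7+ and Ccr7- cells of the same plate, as log10(CPM + 1) of UMIs summed over the cells of a class; each line is 1 of 13 plates, coloured by genotype. Tlr3 is at 0 in Ccr7+ cells of 12 plates, while Batf3 lines run up and down.

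Shares of cells with a UMI are given next. Batf3 was found in 45.5% of Ccr7+ cells (exact 95% interval 36.5 to 54.8) and 47.7% of Ccr7- cells (41.7 to 53.7). Xcr1 was found in 8.94% of Ccr7+ cells (4.55 to 15.4) and 49.5% of Ccr7- cells (43.4 to 55.5). Naaa was found in 12.2% and Ppt1 in 18.7% of Ccr7+ cells, against 80.3% and 79.9% of Ccr7- cells. In cells with Naaa the median was 1 UMI in Ccr7+ and 357 UMIs in Ccr7- cells. Only 5.69% of Ccr7+ cells had 10 or more Naaa UMIs, against 74.9% of Ccr7- cells. The other 6 genes were found in 1.63% (Tlr3) to 16.3% (Wdfy4) of Ccr7+ cells and in 39.1% (Clec9a) to 73.8% (Wdfy4) of Ccr7- cells. After each cell was thinned to 20000 UMIs, with 5 Ccr7+ and 3 Ccr7- cells too shallow, Xcr1 stood at 6.78% and 47.1%, and Batf3 at 44.1% and 45.7%. Cells marked as fibroblasts or endothelium, which are not known for Xcr1 or Batf3, had a UMI of Xcr1 in 3.85% (0.469 to 13.2) and of Batf3 in 5.77% (1.21 to 15.9), at a median of 197770 UMIs. They had Naaa in 23.1% (12.5 to 36.8) and Ppt1 in 51.9% (37.6 to 66.0), which is no background, since other cells with lysosomes use these genes. Shares were higher in the 62 macrophage-marked cells for Xcr1 (11.3%, 4.66 to 21.9), Batf3 (17.7%, 9.20 to 29.5) and Naaa (46.8%), with Ppt1 in 53.2%. The 12 T or NK-marked cells had Xcr1 and Batf3 in 33.3% each (9.92 to 65.1). The Xcr1 share of Ccr7+ cells, 8.94%, thus lay between those of fibroblast- and macrophage-marked cells. All these intervals pool cells over plates and cover counting error only, and the shares were not compared per plate.

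A Ccr7+ cell had a median of 1 identity gene and a Ccr7- cell a median of 6. None of the 10 was found in 41 of 123 Ccr7+ cells (33.3%) and in 21 of 279 Ccr7- cells (7.53%). At least 5 were found in 10 Ccr7+ cells (8.13%) and in 182 Ccr7- cells (65.2%). All 10 were found together in 0 of 123 Ccr7+ cells and in 13 Ccr7- cells. The 31 cells with 1 to 9 Ccr7 UMIs resembled the Ccr7- cells, with a median of 5 genes and Xcr1 in 45.2% of them, and counting them as Ccr7+ left 4 of the 10 genes past the threshold. The Ccr7- cells were themselves mixed: 42 had under 2 identity genes, at a median of 605 genes found in all.

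**Figure D2:**
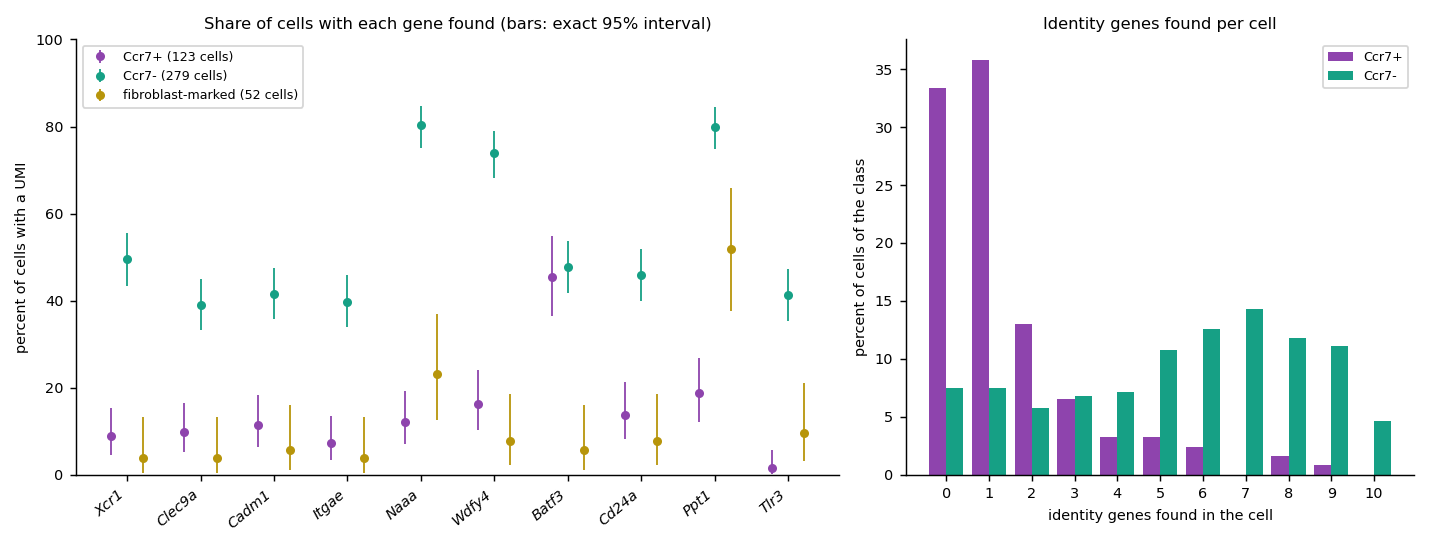
Left, percent of cells with at least 1 UMI of each identity gene in Ccr7+ cells, Ccr7- cells and cells marked as fibroblasts or endothelium, with exact 95% intervals; right, percent of Ccr7+ and Ccr7- cells by the number of the 10 genes found. Batf3 has like shares in both classes (45.5% and 47.7%), and most Ccr7+ cells hold 0 or 1 of the genes.

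Other genes of the cDC1 program were split. A list of other cDC1 genes had 34 members with counts, of which 26 were tested: 11 were lower and 2 higher in Ccr7+ cells, and 13 did not pass, with a median log2 ratio of mean CPM of -1.21. The chemokine receptor gene Cxcr3 averaged 0.155 CPM in Ccr7+ and 232 CPM in Ccr7- cells, and the flagellin and profilin receptor gene Tlr11 8.04 and 174 CPM. Rab7b, of the late endosome, averaged 63.5 CPM in Ccr7+ and 1246 CPM in Ccr7- cells, Sept3 21.7 and 292 CPM, and Plpp1 13.6 and 121 CPM. Their Ccr7+ sums were at 0 on 12 (Cxcr3), 11 (Tlr11 and Plpp1), 10 (Sept3) and 7 (Rab7b) of 13 plates. These genes passed the filter on low counts through their Ccr7- level and had to be lower in Ccr7+ cells. Their calls are no support, and no p is given for them. The 11 lower calls and the median include such genes. Ifi205, at 0 in no sum of either class, averaged 1136 and 2348 CPM (edgeR adjusted p = 0.00022). The 2 that rose, named after their values were seen, were Il12b, a subunit of interleukin 12, with 2050.1 CPM in Ccr7+ and 89.7 CPM in Ccr7- cells (edgeR adjusted p = 0.00184), and the antigen uptake receptor gene Ly75, with 771 and 87.7 CPM (adjusted p = 0.00125).

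Among the 13 that did not pass were Irf8, Id2, Zbtb46, Cbfa2t3 and Flt3, named with their values known. The transcription factor gene Irf8 averaged 1101 ± 430.4 CPM in Ccr7+ and 1530.1 ± 407 CPM in Ccr7- cells (SD, n = 13; log2 difference -0.52, 95% interval -0.96 to -0.07; edgeR adjusted p = 0.0926). Id2 averaged 2589 ± 644 CPM in Ccr7+ and 2367 ± 439 CPM in Ccr7- cells (adjusted p = 0.503). For Zbtb46, Cbfa2t3 and the receptor gene Flt3 the edgeR adjusted p was 0.778, 0.859 and 0.445. Of the maturation list 24 of 25 tested genes were higher in Ccr7+ cells, where Ccr7 itself chose the cells. Some of them, such as Socs2 and Nudt17, at 0 in Ccr7- cells of 7 plates, passed the filter through their Ccr7+ level. The count is a check of the classes only. Cd83 averaged 3850 CPM in Ccr7+ and 1423 CPM in Ccr7- cells, Traf1 1581 and 321 CPM, and Tmem123 1034 and 66.3 CPM (edgeR adjusted p = 2.14e-07, 1.03e-05 and 4.00e-05). Ccl22 averaged 2589 and 44.3 CPM, with a Ccr7- median of 2.04 CPM, and is given without a p. Macrophage markers were not higher in the Ccr7+ cells: the 12 genes summed to 0 to 482 CPM (median 90.1) in Ccr7+ and to 0.27 to 478 CPM (median 215) in the Ccr7- sums of 14 plates, with 5 and 1 of the 12 at 0 throughout. The 11 fibroblast and endothelial genes summed to 0 to 131 CPM (median 4.16) in Ccr7+ and to 0.963 to 467 CPM (median 106) in Ccr7- sums, with 2 and 0 of the 11 at 0. The 10 T and NK cell genes reached 690 CPM in Ccr7+ and 114 CPM in Ccr7- sums, with a median of 0 in both. The 8 cDC2 or monocyte genes summed to 0 to 641 CPM (median 127) in Ccr7+ and to 326 to 773 CPM (median 516) in Ccr7- sums. The part of these lists in the result was not tested, nor was the origin of the Ccr7+ cells.

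Whether the difference between the Ccr7 classes depends on the genotype was tested between Irf1_dXCR1 and Irf1_FF. None of the 10 genes passed (0% of 4945 genes, edgeR; 108 genes had an unadjusted p under 0.05, and 2 of all genes passed with no filter on low counts). The intervals are wide, since a plate held 3 to 13 Ccr7+ cells: for Xcr1 the difference of log2 fold changes was -1.27 ± 3.39 (SE), and for Naaa 4.04 ± 2.78. These data cannot separate a class difference shared by both genotypes from one that differs several-fold.

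The second set of comparisons sets the deletion lines against their FF plates over all sorted cells, and here Xcr1 was the identity gene with the lowest log2 fold change in both lines. Xcr1 had 54.6, 95.2, 127, 133 and 255 CPM in the 5 Irf1_dXCR1 plates, against 197, 326, 390.4 and 573 CPM in the 4 Irf1_FF plates. Only Irf1_dXCR1 plate 4 lay above the lowest Irf1_FF plate. In the other line it had 79.8, 210.3, 359 and 418 CPM in the 4 Ikbkb_dXCR1 plates, against 727 CPM in the Ikbkb_FF plate, so all 4 were below it. The log2 fold change was -1.48 ± 0.48 (SE, 95% interval -2.51 to -0.45) in the Irf1 line and -1.45 ± 0.74 (-3.01 to 0.12) in the Ikbkb line. With edgeR the adjusted p was 0.519 and 1, so neither passed.

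None of the 10 genes was called in either line or in both combined. Of 16203 genes tested 0% passed in the Irf1 line, 0% in the Ikbkb line and 0% in both (edgeR), while 1272, 707 and 634 genes had an unadjusted p under 0.05, and DESeq2 called 100, 1180 and 875 genes. Over both lines Xcr1 changed by -1.46 ± 0.43 on the log2 scale (edgeR adjusted p = 0.99), and DESeq2 called it (adjusted p = 0.0273). An exact permutation of plate labels on log2(CPM + 1), added after the values were seen and two-sided, gave p = 0.0317 in the Irf1 line and 0.0222 over both lines; the smallest p these designs allow is 0.00794 and 0.00159. The difference between the lines was -0.03 ± 0.94 (95% interval -2.02 to 1.95; 0% of genes passed with edgeR, 543 had an unadjusted p under 0.05 and DESeq2 called 900). Xcr1 already had the lowest log2 fold change of the identity genes in these plates when it was permuted, so its permutation p values are a description. The deleter at Xcr1 goes with the dXCR1 label in both lines, so that it and the deletion of Irf1 or Ikbkb cannot be told apart for this gene.

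Both the share of cells and the count per cell entered these sums. Xcr1 was found in 22.7 ± 13.6% of cells in Irf1_dXCR1 plates (SD, n = 5) and 33.3 ± 10.7% in Irf1_FF plates (n = 4; exact permutation p = 0.222). It was found in 36.7 ± 16.2% of cells in Ikbkb_dXCR1 plates and 55.9% in the Ikbkb_FF plate. In the cells with Xcr1 the median count was 64.5, 71, 72, 80 and 84 UMIs in Irf1_dXCR1 plates, against 86.5, 124, 199 and 281 UMIs in Irf1_FF plates, without overlap. It was 49, 81, 94.5 and 97 UMIs in Ikbkb_dXCR1 plates, against 218 UMIs in the Ikbkb_FF plate. This count per cell was looked at after the sums were seen and is given with no test. In Ccr7- cells alone Xcr1 averaged 223 ± 122 CPM in Irf1_dXCR1 and 620.5 ± 286 CPM in Irf1_FF plates, and the fitted difference was -1.47 on the log2 scale, as large as over all cells (added after the values were seen).

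Clec9a had the next lowest log2 fold change in both lines. It had 41.3, 50.0, 58.8, 68.4 and 69.6 CPM in Irf1_dXCR1 plates, against 58.7, 80.7, 117 and 198 CPM in Irf1_FF plates, with 1 Irf1_FF plate among the Irf1_dXCR1 values. It had 44.6, 106, 116 and 142 CPM in Ikbkb_dXCR1 plates, against 206 CPM in the Ikbkb_FF plate. The log2 fold change was -0.98 ± 0.49 (95% interval -2.02 to 0.07) in the Irf1 line and -1.01 ± 0.77 in the Ikbkb line (edgeR adjusted p = 0.519 and 1). In cells with Clec9a the median count was 21, 30, 54.5, 67.5 and 97.5 UMIs in Irf1_dXCR1 plates, against 23, 64, 65 and 71 UMIs in Irf1_FF plates. Unlike for Xcr1 these overlapped. On log2(CPM + 1) over all cells the exact permutation p of Clec9a was 0.0794 in the Irf1 line and 0.0603 over both lines. The share of Ccr7- cells with Clec9a differed by -25.4 percentage points between Irf1_dXCR1 and Irf1_FF plates (exact permutation p = 0.0476, and 0.00635 over both lines), and that of Xcr1 by -24.9 points (p = 0.111, and 0.0365 over both lines), so in shares of Ccr7- cells both genes were lower by like amounts. These permutations, over 8 measures of the 2 genes, were added after the values were seen and are not adjusted for their number. The 2 genes permuted were those with the lowest log2 fold changes between these same plates. Their permutation p values are thus a description and no support for a difference. Those over both lines also rest on 1 Ikbkb_FF plate.

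The other 8 genes moved less and in both directions. Itgae, the CD103 chain, was on the higher side: 112, 219, 223, 231 and 244 CPM in Irf1_dXCR1 plates, against 66.3, 122, 174 and 188 CPM in Irf1_FF plates, a log2 difference of 0.58 ± 0.37 (SE; edgeR adjusted p = 0.665). Irf1_dXCR1 plate 1, the lowest, fell among the Irf1_FF plates. Cd24a had 87.4, 117, 125, 173 and 232 CPM in Irf1_dXCR1 plates, against 133, 183, 265 and 279 CPM in Irf1_FF plates (-0.55 ± 0.35; edgeR adjusted p = 0.682), and the groups overlapped. Cadm1, Tlr3, Batf3, Wdfy4, Naaa and Ppt1 had log2 fold changes between -0.11 and 0.18 in the Irf1 line. For Naaa the means were 1078 ± 275 CPM in Irf1_dXCR1 and 1078 ± 297 CPM in Irf1_FF plates, with a 95% interval of -0.52 to 0.52 for the log2 fold change. For Ppt1 that interval was -0.46 to 0.44, for Wdfy4 -0.54 to 0.52 and for Batf3 -0.36 to 0.71. In the Ikbkb line the same 8 genes lay between -0.68 ± 0.77 (Cadm1) and 0.13 ± 0.42 (Batf3), with only 1 Ikbkb_FF plate.

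Marker genes of other cells differed between these plates as well. The 11 fibroblast and endothelial genes summed to 315 to 5552 CPM (median 1899) in Irf1_dXCR1 and 164 to 8519 CPM (median 3322) in Irf1_FF plates, with 0 of 11 at 0 in both. The 12 macrophage genes summed to 196 to 3440 CPM (median 700) in Irf1_dXCR1 and 284 to 2775 CPM (median 723) in Irf1_FF plates. In the Ikbkb line they summed to 175 to 2253 CPM (median 1099) in Ikbkb_dXCR1 plates and to 90.8 CPM in the Ikbkb_FF plate, where 8 of 12 were at 0. The 10 T and NK cell genes summed to 0 to 156 CPM (median 0) in Irf1_dXCR1 and 0 to 328 CPM (median 197) in Irf1_FF plates, with 4 and 0 of the 10 at 0. They summed to 0 to 321 CPM (median 12.9) in Ikbkb_dXCR1 plates and to 632 CPM in the Ikbkb_FF plate, with 4 of 10 at 0 in both. None passed in the Irf1 line, where 9 of 10 were below 0 and 4 had an unadjusted p under 0.05 (edgeR), and their part in the result was not tested. With marked cells left out the log2 fold change of Xcr1 was -1.55 in the Irf1 line and -1.48 over both lines, as large as with them. Of the other cDC1 list none passed (0 of 34 tested); Id2 averaged 1707 CPM in Irf1_dXCR1 and 1779 CPM in Irf1_FF plates, and Ifi205 1819 and 1234 CPM (edgeR adjusted p = 1 and 0.519).

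**Figure D3:**
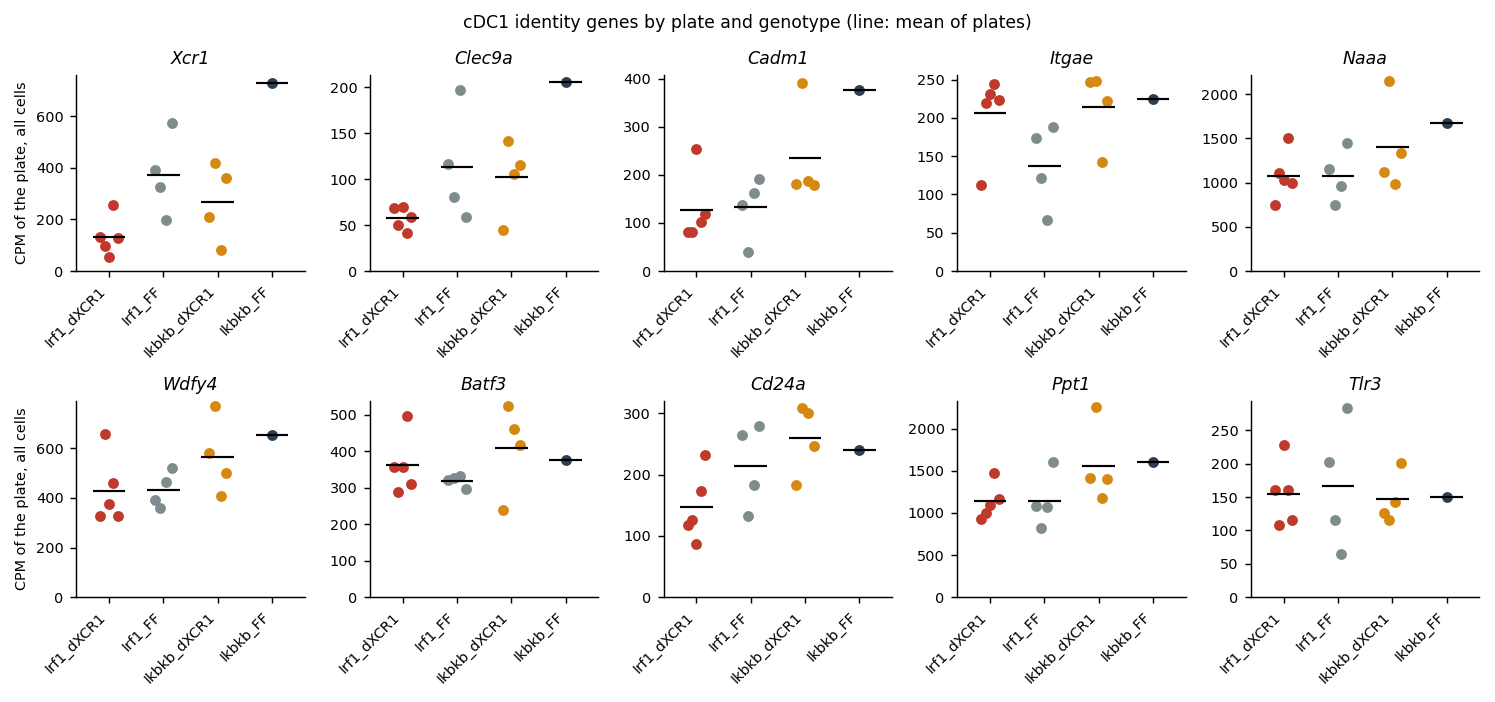
Level of each identity gene over all sorted cells in CPM, 1 point per plate, by genotype, with a line at the mean of the plates (each panel has its own scale from 0). Xcr1 runs from 54.6 to 255 CPM in Irf1_dXCR1 plates and from 197 to 573 CPM in Irf1_FF plates, while Naaa, Wdfy4 and Ppt1 overlap throughout.

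The third set of comparisons sets the transcripts beside the XCR1 protein, whose fluorescence was recorded at the sort for 458 cells on 12 plates. Values are on the arcsinh scale, and the lowest was 6.71. Within a plate, the staining of a cell went with its Xcr1 transcript on most plates: Spearman rho ran from -0.07 to 0.68 with a median of 0.30, and was above 0 on 10 of 12 plates. The correlations are descriptions over cells of 1 plate, which share a sort and vary in depth. Itgae had a median rho of 0.32 (-0.08 to 0.52) and Clec9a of 0.28 (-0.16 to 0.70). Among 4580 genes compared, the median rho of Itgae ranked 4th from the top, that of Xcr1 7th and that of Clec9a 8th. These ranks include the marked cells. On Irf1_FF plate 4 only Cadm1 of the 10 had a rho above 0 (0.05). In the 3 stained Ikbkb_dXCR1 plates Itgae ran from -0.08 to 0.01 and Cd24a from -0.30 to -0.03, while Xcr1 ran from -0.06 to 0.36. Cadm1 was the 1 gene with a rho above 0 on all 12 plates (0.05 to 0.68, median 0.26). Tlr3 and Naaa had the lowest medians of the 10, 0.14 and 0.15.

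In Ccr7- unmarked cells the median rho of Xcr1 was 0.39 and ranked 2nd of 4580 genes, and that of Cadm1 was 0.30, again above 0 on all 12 plates. Itgae fell to rank 62 there (median 0.26), Clec9a to rank 239 (0.20) and Batf3 to rank 1611 (0.08). Staining was higher where the transcript was found: Ccr7- cells with Xcr1 had a median of 8.99 (quartiles 7.99 and 9.75, 105 cells), and Ccr7- cells without it 7.71 (7.17 and 8.49, 125 cells). In Ccr7+ cells the medians were 8.29 in 9 cells with Xcr1 and 8.20 in 96 cells without it. Marked cells were low, with 7.14 in macrophage-marked and 7.20 in fibroblast-marked cells.

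**Figure D4:**
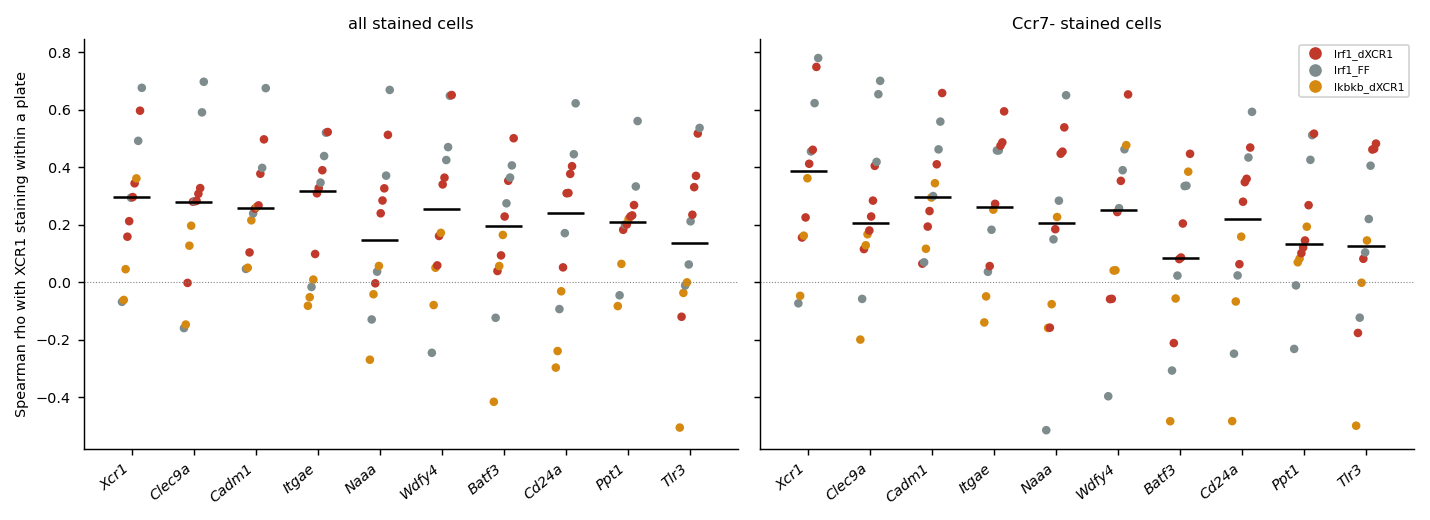
Spearman rho between the CPM of each identity gene and XCR1 staining within a plate, for all stained cells (left) and Ccr7- unmarked stained cells (right); each point is 1 of 12 plates and the line is their median. Points of Cadm1 are above 0 on all plates in both panels, and Xcr1 has the highest median in Ccr7- cells (0.39).

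Cells above the median staining of their plate were then compared with the cells at or below it, with the plate as a block. All 10 genes had a fitted log2 fold change above 0, and none passed: 0% of 6622 genes were called with edgeR, 193 had an unadjusted p under 0.05, and DESeq2 called 223, among them Xcr1, Cadm1 and Ppt1 (adjusted p = 0.0361, 0.0188 and 0.00351). The log2 fold change was 2.34 ± 0.85 for Xcr1, 2.06 ± 0.84 for Cadm1 and 1.72 ± 0.77 for Itgae (edgeR adjusted p = 1 for each). The median over the 10 genes was 1.23, against 0.04 over all genes tested. The share of all genes with a value above 0 was not counted. Cadm1 was found in 37.9 ± 15.5% of high-staining and 13.6 ± 9.40% of low-staining cells (SD over 12 plates), and Xcr1 in 38.8 ± 16.2% and 20.5 ± 18.4%, each higher on 10 of 12 plates. All 7 tested fibroblast genes and all 7 tested macrophage genes had values below 0, none past the threshold. Of the fibroblast genes 5 had an unadjusted p under 0.05 (edgeR), and the part of marked cells in this split was not tested. In Ccr7- unmarked cells alone the log2 fold change of Xcr1 was 2.05, and Cadm1 was found in 54.8 ± 17.0% of high-staining and 24.4 ± 13.7% of low-staining cells, higher on all 12 plates. There the share was higher on 10 plates for Xcr1, Clec9a, Itgae and Wdfy4, on 9 for Cd24a and on 8 for Ppt1. For Batf3 and Tlr3 it was higher on 7 plates, and for Naaa on 6.

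XCR1 staining overlapped between the Ccr7 classes. It is not weighed against the Xcr1 transcript, which had to be lower in Ccr7+ cells. The plate median was 7.05, 8.22 and 9.44 (lowest, median, highest of 11 plates) in Ccr7+ cells, against 7.52, 8.50 and 9.39 in Ccr7- cells. It was lower in Ccr7+ cells on 6 of 11 plates, with a mean difference of -0.23 ± 0.96 (SD; exact two-sided sign-flip permutation p = 0.463). With marked cells kept the difference was 0.20. Against Ccr7- cells with 5 or more identity genes, added after the values were seen, it was -0.51 (exact sign-flip permutation p = 0.148). The gate of the sort is not given in the sources used here.

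Between genotypes the staining was lower in Irf1_dXCR1 plates once marked cells were left out. Over all stained cells the plate medians were 7.21, 7.44, 7.52, 7.76 and 8.05 in Irf1_dXCR1 plates, against 7.71, 7.95, 8.91 and 9.27 in Irf1_FF plates. The groups overlapped, and the means were 7.60 ± 0.32 and 8.46 ± 0.75 (exact permutation p = 0.0794). In unmarked cells the plates ran from 7.46 to 8.31 in Irf1_dXCR1 and from 8.62 to 9.30 in Irf1_FF, without overlap (difference -1.24, exact permutation p = 0.0159; the smallest p this design allows is 0.00794). In Ccr7- cells the difference was -0.97 (exact permutation p = 0.0476), and in Ccr7- cells with Xcr1 found -0.76 (p = 0.206). The lower staining stood beside the lower Xcr1 transcript in the same plates, and its dependence on the deleter at Xcr1 was not tested. Ikbkb_FF was not stained, so no such comparison can be made in that line; the 3 stained Ikbkb_dXCR1 plates had medians of 7.87, 8.90 and 9.38.

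**Figure D5:**
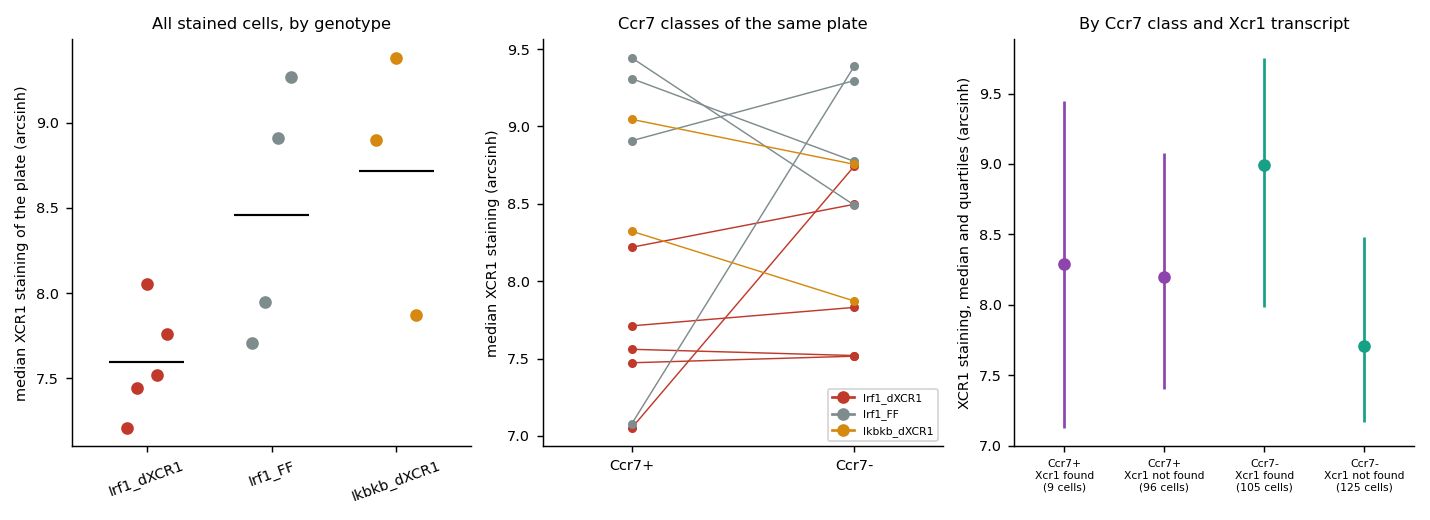
XCR1 staining on the arcsinh scale: left, median of all stained cells per plate by genotype with a line at the mean; middle, plate medians of Ccr7+ and Ccr7- cells joined per plate (11 plates); right, median and quartiles by Ccr7 class and Xcr1 transcript over cells. Irf1_dXCR1 plates lie at 7.21 to 8.05 and Irf1_FF plates at 7.71 to 9.27, and Ccr7- cells with Xcr1 found stain highest, at a median of 8.99.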

How the data were processed

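UMI counts of 21205 genes in 555 cells of 14 plates were deposited as whole numbers. Per the labels' protocols, cells were sorted singly into wells and a 5-base UMI tagged the 5′ end of each transcript. The submitters' processing notes name the build GRCm38 and the tools HTSeq 0.9.1, STAR 2.5.3a and bcl2fastq. The deposited cell table gives total counts, the genes found (a score), mitochondrial and spike-in fractions by the authors, plate, age and arcsinh XCR1 staining; 7 of its 47 columns were used. No doublet caller was run, since wells held single sorted cells.

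Counts were summed per plate, or per plate and class, filtered with filterByExpr and, after TMM scaling, tested by quasi-likelihood in edgeR 4.0.16 (R 4.3.3); p values are two-sided and Benjamini-Hochberg adjusted over all genes tested. The 14 plates were fitted together, so the single Ikbkb_FF plate is assumed to vary like the others. The plate paired the Ccr7 and staining classes, which come from the same mouse, and was a block. Replicate numbers only name plates. Genotype tests set a difference against the spread between plates, and class tests against the spread of the class difference over plates. Staining was compared as plate medians by exact permutation. Alternatives used DESeq2 1.42.0 and limma 3.58.1 (pseudocount 10). The fits were tested on simulated data. The 10 genes are named whatever their values; of the other cDC1 list, up to 6 genes past the threshold with the smallest adjusted p, or else the 2 most abundant, and of the maturation list up to 4. Genes and lists were chosen with earlier results of these data known. Of the genes most like the 10, 1 is not reported here.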

Additional observations from a re-analysis of the deposited data

Results flagged for a closer look

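Of 32 sets of plate values with 4 or 5 plates per genotype, 3 held a plate far from the others, where chance marks about 1 in 20. Cadm1 stood at 254 CPM in Irf1_dXCR1 plate 3, and the next plate of that genotype at 119 CPM. Cadm1 stood at 391 CPM in Ikbkb_dXCR1 plate 2, and the next at 187 CPM. Itgae stood at 112 CPM in Irf1_dXCR1 plate 1, where 18 of 59 cells were marked as macrophages, and the next plate at 219 CPM.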

How the results depend on the processing

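Among the genes that reached the filter in both Ccr7 classes, Wdfy4 and Ppt1 stayed called in all 8 alternatives and without any single plate. Batf3 was called in none. Cadm1 was not called with marked cells kept, with 1 or more Ccr7 UMIs as Ccr7+ (edgeR adjusted p = 0.148) or with Flt3 or Zbtb46 cells only. Nor was it with at least 5 cells per class or no replicate block (edgeR adjusted p = 0.122). Calls of the other 6 genes are no support, and are counted here as a description. The 9 calls became 4 when cells with 1 or more Ccr7 UMIs counted as Ccr7+ (Xcr1, Cadm1, Itgae, Cd24a and Tlr3 not called). They became 7 with at least 5 cells per class, and 8 or 9 without single plates. With no replicate block for the plate 6 of the 10 were called (Clec9a, Cadm1 and Cd24a not) and 419 genes in all, against 1005 with the plate as a block. DESeq2 called 9 of the 10 and 2530 genes; no filter on low counts gave 9 and 1629, 1 or more Ccr7 UMIs 614, and cells with Flt3 or Zbtb46 only 8 and 421. Between genotypes, unlike between classes of a plate, numbers pair nothing. No paired analysis was possible because replicate numbers of the genotypes name the plates in accession order and pair no plates across genotypes.

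DESeq2 called 1 of the 10 genes over both lines and 3 by staining. Without marked cells the staining difference between Irf1_dXCR1 and Irf1_FF became -1.24; it was -0.97 in Ccr7- cells and -1.14 in Ccr7- cells with 5 or more identity genes (both added), and between -1.11 and -0.59 without single plates. Between Ccr7+ and Ccr7- cells it was 0.20 with marked cells kept, -0.73 against Ccr7- cells with Xcr1 (added; those cells were chosen on a transcript that goes with staining, so this is no test of the classes), and -0.35 to -0.025 without single plates.

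Small genotype values changed sign, and none passed. In the Irf1 line, Ccr7- cells only gave 0.058 (Cadm1) and 0.13 (Tlr3), leaving out marked cells and Irf1_FF plate 1 (added) gave 0.11 (Naaa), and limma-trend gave 0.46 (Naaa), 0.000336 (Wdfy4) and 0.44 (Ppt1). Ccr7+ cells only, added after seeing the data, called 7, 25 and 22 genes in the Irf1 line, the Ikbkb line and both, and 0 of the 10. Its values, which rest on few cells and many sums at 0, were 0.21 (Cadm1), 2.41 (Naaa), 1.11 (Wdfy4), -0.72 (Batf3), 0.60 (Ppt1) and 4.17 (Tlr3) in the Irf1 line, 7.77 (Xcr1), 7.14 (Clec9a), 7.74 (Itgae), 0.70 (Wdfy4) and -0.38 (Batf3) in the Ikbkb line, and 3.32 (Xcr1), 3.08 (Clec9a), 0.90 (Wdfy4), -0.55 (Batf3), 4.11 (Cd24a) and 2.08 (Tlr3) over both. For Xcr1 the sign changed in the Ikbkb line and over both, where the 1 Ikbkb_FF plate was at 0 in its 5 Ccr7+ cells, and not in the Irf1 line (-1.13). With marked cells, the genotype dependence of the Ccr7 difference was -0.027 (Wdfy4), -0.67 (Ppt1) and -1.28 (Tlr3).

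Without single plates the Irf1 line ranged from -0.47 to 0.16 (Cadm1), -0.15 to 0.15 (Naaa), -0.22 to 0.075 (Wdfy4), -0.14 to 0.18 (Ppt1) and -0.37 to 0.24 (Tlr3). The Ikbkb line ranged from -0.27 to 0.077 (Ppt1), -0.23 to 0.059 (Tlr3), -0.010 to 0.32 (Batf3) and -0.14 to 0.088 (Itgae), and both lines from -0.14 to 0.061 (Ppt1) and -0.21 to 0.093 (Tlr3). The genotype dependence of the Ccr7 difference ranged from -2.55 to 1.75 (Clec9a), -4.99 to 0.24 (Cadm1), -0.48 to 2.43 (Tlr3), -3.24 to 1.41 (Xcr1) and -4.59 to 1.64 (Cd24a). The cause was not tested. Of 980 values of single genes 886 kept direction and side of the threshold; all 20 shares of cells kept within the spread between plates. Depth limits mainly the Ccr7+ sums, and the Ikbkb line rests on 1 FF plate.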

Other observations

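Genes outside the 10 were ranked by the Spearman correlation, over all 555 cells, between their CPM and the number of identity genes found in the cell. Cells share plates, and both measures vary with depth, so the values are descriptions. Of 4570 genes found in at least 10% of cells, the 8 most alike included Ckb (0.69), Plbd1 (0.69), Rab7b (0.68), Gm2a (0.67), H2-DMa (0.66), Alox5ap (0.63) and Rnase6 (0.62). Gm2a encodes a lysosomal protein of glycolipid breakdown, and H2-DMa a chain of the chaperone that loads peptides on MHC class II. Rab7b was on the list of other cDC1 genes, and of that list Irf8 ranked 64th at 0.48 and Flt3 151st at 0.41. In Ccr7- cells alone the values from Ckb to Rnase6 were lower, between 0.37 (Alox5ap) and 0.58 (Ckb). At the other end, Cd63 stood at -0.56, B2m at -0.47 and Fscn1, a gene of mature dendritic cells, at -0.45.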
